A study of Mus musculus with 6 samples.

Results

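The proteasome subunit genes are the genes that encode the protein-degrading complex of the cell and the caps that open it. They were taken as the protein-coding genes of the GENCODE M21 annotation whose symbol starts with Psma, Psmb, Psmc, Psmd or Psme, without Psmb8, Psmb9 and Psmb10, which encode the catalytic subunits of the immunoproteasome. This rule uses names only and found 42 members among the 49315 genes of the table, of which 21811 are protein-coding in GENCODE M21. By role, 14 encode the 20S core, 17 the 19S regulatory particle, 3 its assembly chaperones and 5 activators. The other members are Psma8 and Psmb11, which encode core subunits restricted to testis and thymus, and Psmc3ip, which encodes no subunit and acts in meiotic recombination.

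Gene expression was measured in bulk, by RNA-seq, in sorted Tregs (regulatory T cells, a CD4+ lineage defined by the transcription factor Foxp3 that holds immune responses in check) in 2 groups of 3 libraries, skin Tregs and Tregs of the skin-draining lymph nodes (SDLNs). All mice carried the genotype Foxp3-GFP, in which a fluorescent protein reports Foxp3 and marks the cells for sorting, and were 9 days old. The labels name no treatment. Per the study's methods, tissue of 3 biological replicates was pooled into each sample, CD45+ cells were enriched on magnetic beads, and live CD45+ CD4+ Foxp3-EGFP+ cells were sorted. The skin was digested with enzymes and the lymph nodes were mashed, so that tissue and dissociation cannot be told apart, and the labels give all samples the same batch.

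The 20S core is a barrel of stacked rings. The outer rings, made of alpha subunits, form the gate, and the inner rings, made of beta subunits, hold the cutting sites inside. The 19S particle caps the barrel. Its base contains a ring of ATPases that unfold substrates, and its lid removes the ubiquitin chains by which proteins are marked for degradation. In T cells, the proteasome sets the level of short-lived regulators and cell cycle proteins, and in immune cells interferon exchanges the constitutive catalytic subunits for those of the immunoproteasome. Since subunits are built into the complex in fixed proportions, their transcripts are usually present together in dividing and resting cells alike.

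The libraries differed in depth and content. The skin libraries held between 3748669 and 11741784 counts and the SDLN libraries between 47243498 and 116158706, and 2911 to 5317 genes reached 1 CPM (a gene's share of the library total, in counts-per-million) in skin against 12397 to 13002 in SDLN. A gene is called over the floor in a library when it has more than 3 counts, since a count of 0 allows up to 3. That floor is 0.800, 0.255 and 0.332 CPM in the skin libraries. Here and throughout, 3 values for a tissue stand in the order of libraries A, B and C. The label of the skin libraries was checked against its defining genes. The skin libraries held 0, 330 and 1 counts of Foxp3 and 0, 1861 and 2 counts of Cd4. Of the skin libraries, only skin Tregs B thus held Foxp3 and Cd4 over the floor, while every SDLN library had at least 1788 counts of either gene. Of 9 T cell markers, 6, 9 and 7 were over the floor in skin, and their sum was 4827 to 7086 CPM in skin and 6426 to 8069 CPM in SDLN. Of 18 macrophage and dendritic cell markers, 16, 17 and 15 were over the floor in skin, with a sum of 34769 to 61094 CPM against 449 to 784 CPM in SDLN. All 5 keratinocyte markers were at 0 in every skin library. The sum of 5 fibroblast markers was 0, 90.6 and 0.775 CPM in skin against 1.44 to 7.56 CPM in SDLN, and that of 5 erythroid markers was 137, 263 and 842 CPM against 59.1 to 122 CPM. B cell markers summed to at most 2.66 CPM in skin against 56.9 to 92.9 CPM, and endothelial markers to at most 25.9 CPM against 139 to 173 CPM. The endothelial sum was nearly all Pecam1 in SDLN, and in skin Tregs A it was all Kdr, which was at most 0.110 CPM in SDLN. The part of these differences in the values given for the proteasome genes was not tested. Each library is given separately, and some fold changes and shares are also given with skin Tregs B as the only skin library. In bulk samples, fewer cells of a type and less RNA per cell cannot be told apart.

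Sequence bears on these values first through a near-identical gene pair. Psme2, which encodes the beta subunit of the PA28 activator, lies on chromosome 14 (55587441 to 55591113, minus strand, GRCm38), and its copy Psme2b on chromosome 11 (48945354 to 48946190, minus strand). Their coding sequences in the GENCODE M21 transcripts are each 720 bases long and differ at 5 positions, an identity of 99.3%. The longest identical stretch has 311 bases, more than the 150 bases of a read, so that the counts of both genes are uncertain. Coding bases 454 to 543 are printed below in the direction of transcription, with the 3 differing positions of this stretch in capitals.
Psme2: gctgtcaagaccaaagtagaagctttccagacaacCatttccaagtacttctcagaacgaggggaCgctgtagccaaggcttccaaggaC
Psme2b: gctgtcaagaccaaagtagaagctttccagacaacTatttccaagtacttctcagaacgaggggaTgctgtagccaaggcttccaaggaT

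Promoters were examined next. In stressed cells the transcription factor encoded by Nfe2l1 raises proteasome subunit genes through sites of the antioxidant response type, and ETS factors bind a GGAA core, so both letter patterns were searched on both strands in the 250 bases before the start that RefSeq gives each gene. RefSeq sequences (GRCm38.p6) were given for 35 of the 42 members, with 38 entries, and for 21263 protein-coding promoters in all. The antioxidant-type pattern TGACNNNGC was found in 13.2% of the member entries and in 10.4% of all promoters, in Psmb5, Psmb6, Psmc6, Psmd12 and Psmd9. The ETS pattern TTCCGG was found in 44.7% of the member entries and in 14.998% of all promoters. Of the other 7 patterns searched, the CCAAT box was found in 36.8% against 35.4% and the TATA box TATAAA in 7.89% against 11.6%. The Sp1-type box GGGCGG was found in 55.3% against 42.6%, and the palindrome of the nuclear respiratory factor in 15.8% against 5.18%. The looser pattern TGANNNNGC, which contains the first, was found in 39.5% against 35.3%, the stricter TGACNCNGC in 5.26% against 3.82%, and the cAMP response element TGACGTCA in 0% against 1.92%. These matches are descriptions of letters and not of binding. The stretches printed here are those of 5 members that the results below turn on, without bases that are exonic, each in the direction of its gene, with matches of TGACNNNGC, TTCCGG and CCAAT on either strand in capitals. Psmd9 and Psmd10 were absent from every skin library, Psmb5 is a catalytic subunit, Psmc6 holds both patterns, and Psmd4 took most of the 19S counts of skin Tregs A. The RefSeq start of Psmd9 lies inside the longer GENCODE M21 gene whose counts are reported, so that its stretch is not upstream of that gene.
Psmb5 (chr14:54618023-54618245, minus): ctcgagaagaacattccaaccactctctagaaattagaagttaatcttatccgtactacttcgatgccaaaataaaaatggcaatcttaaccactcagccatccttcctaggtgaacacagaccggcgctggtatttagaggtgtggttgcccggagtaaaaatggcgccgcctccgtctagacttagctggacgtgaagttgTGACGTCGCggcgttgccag
Psmc6 (chr14:45329574-45329787, plus): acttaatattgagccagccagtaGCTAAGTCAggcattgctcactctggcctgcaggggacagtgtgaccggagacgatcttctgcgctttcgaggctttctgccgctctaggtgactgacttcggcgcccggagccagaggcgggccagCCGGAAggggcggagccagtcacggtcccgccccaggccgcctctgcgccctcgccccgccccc
Psmd4 (chr3:95042615-95042864, minus): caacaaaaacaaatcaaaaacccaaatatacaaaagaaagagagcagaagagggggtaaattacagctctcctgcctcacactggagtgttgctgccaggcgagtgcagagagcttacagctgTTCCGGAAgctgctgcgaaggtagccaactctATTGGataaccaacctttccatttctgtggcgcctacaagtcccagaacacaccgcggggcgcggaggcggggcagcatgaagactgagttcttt
Psmd9 (chr5:123227940-123228189, plus): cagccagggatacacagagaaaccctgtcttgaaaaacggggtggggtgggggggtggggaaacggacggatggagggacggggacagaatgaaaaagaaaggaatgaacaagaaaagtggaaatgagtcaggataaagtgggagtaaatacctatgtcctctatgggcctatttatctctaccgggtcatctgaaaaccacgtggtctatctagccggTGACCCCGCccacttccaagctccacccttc
Psmd10 (chrX:140956729-140956906, minus): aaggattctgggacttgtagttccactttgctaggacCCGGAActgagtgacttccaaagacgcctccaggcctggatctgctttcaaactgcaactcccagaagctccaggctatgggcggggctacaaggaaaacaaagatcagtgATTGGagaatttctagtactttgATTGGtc

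With all libraries, edgeR called 3 members between skin and SDLN Tregs, none of them a gene of the assembled core or regulatory particle, and these 3 had 0 counts in all skin libraries. Of the 42 members, 40 could be tested with its quasi-likelihood test (Benjamini-Hochberg adjustment over all 13572 genes tested). None was higher in skin Tregs, where 1.04% of all genes tested were, and none was so at an unadjusted p under 0.05, where 1.48% were; limma voom called 0 members higher in skin, where it called 0.936% of all genes, and DESeq2 called 1 of 40, Psma6, where it called 2.98% of all genes. 3 were higher in SDLN Tregs, or 7.5% of the members tested against 45.3% of all genes tested. These were the chaperone genes Psmd9 and Psmd10 and the unrelated Psmc3ip. Of the 5878 genes tested that no skin library held over the floor, edgeR called 5801. The 3 calls thus say little beyond the absence of these genes from the skin libraries. At an SDLN mean of 10 to 100 CPM, 3 of 7 members and 2471 of 6024 protein-coding genes were absent in this way. The count of members called depended on the tool and on single libraries. DESeq2 called 4 members higher in SDLN, where it called 47.8% of all genes, and the addition was Psme2b. Limma voom called 9, where it called 53.0% of all genes, and edgeR without skin Tregs B called 9, against 48.9% of all genes. Both sets of 9 held Psma5, Psmb7, Psmc6, Psmd7 and Psmd8 of the core and regulatory particle. Without skin Tregs C there were 6, against 46.5% of all genes, among them Psma4, Psmd3 and Psmd13. The median log2 fold change (skin over SDLN) was -0.77 over the members and -2.21 over all genes tested, or -0.98 over all genes with those at the floor in every skin library set to their bound, which left the members at -0.77. Among the 1396 genes with at least 10 counts in every library, of which 17 were members, the order was the opposite, at -0.35 over the members and 0.08 over all genes.

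The share of genes called differed between abundance bands. Of all genes at 10 to 100 CPM on average in SDLN, 43.9% were higher in SDLN, as were 3 of 7 members. From 100 to 300 CPM the share was 10.6% and 0 of 21 members were called, and from 300 to 1000 CPM it was 3.09% and 0 of 12 members were called. The lower share of calls among members thus stands beside their high abundance. With skin Tregs B as the only skin library, and the assumption that it varies as the SDLN libraries do, 5 members were higher in skin against 10.6% of 18473 genes tested, and 15 were higher in SDLN against 46% of genes. The 5 were Psma6, Psmb5, Psmd1, Psmd6 and Psme4.

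The alpha ring, whose 7 subunits form the gate of the core, was over the floor in part in each skin library, with 5, 6 and 6 genes. Psma6 (chromosome 12, 55384222 to 55418454) had 449.8, 370.2 and 196.4 CPM in skin against 183.7, 156.8 and 179.4 CPM in SDLN. All skin libraries lay above all SDLN libraries, and this was the only member of which that held, in a comparison where it held for 2.39% of all genes tested. Its log2 fold change of 0.86 (SE 0.590) did not pass the test (adjusted p 0.366), though DESeq2 called it. With skin Tregs B as the only skin library its log2 fold change was 1.14.

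Psma2 went the other way, with 19.2, 164 and 90.7 CPM in skin and 325, 282 and 385 CPM in SDLN. The groups did not overlap, and its adjusted p of 0.282 was the lowest among the members that were not called (log2 fold change -1.74, SE 1.04). Psma1 was at 235, 247 and 127 CPM in skin and 201, 202 and 174 CPM in SDLN, and Psma3 was at 377, 276 and 524 CPM in skin and 286, 278 and 305 CPM in SDLN. Neither differed beyond the spread between skin libraries. Psma7 showed how far that spread went, with 5.602 CPM in skin Tregs A against 453 and 412 CPM in B and C, while SDLN held 512, 407 and 730 CPM. Psma4 was over the floor in skin Tregs C alone and Psma5 in skin Tregs B alone, at 259.9 and 166 CPM, close to or below their SDLN means of 242 ± 28.1 and 198 ± 26.3 CPM (SD, n = 3).

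The beta ring subunits without a cutting site, Psmb1 to Psmb4, were the only role group with each of its genes detected over the floor in every skin library. Psmb1 was at 215, 336 and 151 CPM in skin and 391, 337 and 481 CPM in SDLN, so that the groups just missed each other (adjusted p 0.389). Psmb2 was at 415, 146 and 323 CPM in skin and 313, 272 and 335 CPM in SDLN, and the groups overlapped. Psmb3 was at 534, 329 and 167 CPM in skin against 424, 350 and 585 CPM in SDLN. Psmb4, whose product closes the beta ring, was at 231.5, 179.7 and 114.1 CPM in skin against 156.6, 129.8 and 146.3 CPM in SDLN. The means of Psmb2, Psmb3 and Psmb4 differed by less than 1 SD of the skin libraries, and adjusted p ran from 0.389 to 0.952 in the group.

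The 3 constitutive cutting sites were not detected together in skin Tregs A and C. Psmb5, which encodes the chymotrypsin-like site, had 206.5 and 219.4 CPM in skin Tregs A and B and 0 in skin Tregs C, against 126.0, 98.6 and 84.5 CPM in SDLN. Psmb6, the caspase-like site, was at 0, 178 and 509 CPM in skin and 394, 241 and 762 CPM in SDLN. Psmb7, the trypsin-like site, had 108.6 CPM in skin Tregs B, 0 in the other skin libraries and at 101.8, 99.8 and 58.9 CPM in SDLN. Skin Tregs B was thus the only skin library with all 3 cutting sites, at a summed level of 506 CPM inside the SDLN range of 440 to 905 CPM. None of the 3 genes passed edgeR's test with all libraries (adjusted p 0.887 to 0.973). Psmb7 was, however, called higher in SDLN by limma voom (adjusted p 0.0184) and by edgeR without skin Tregs B (adjusted p 0.00569). Psmb5 shares 12.1% of its exon length with a microRNA gene, Mir686, on the same strand, and Psmb7 shares 11.8% with Nek6 on the opposite strand. The value of Psmb5 is therefore less certain, and that of Psmb7 is so where strand was not used in counting.

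**Figure D1:**
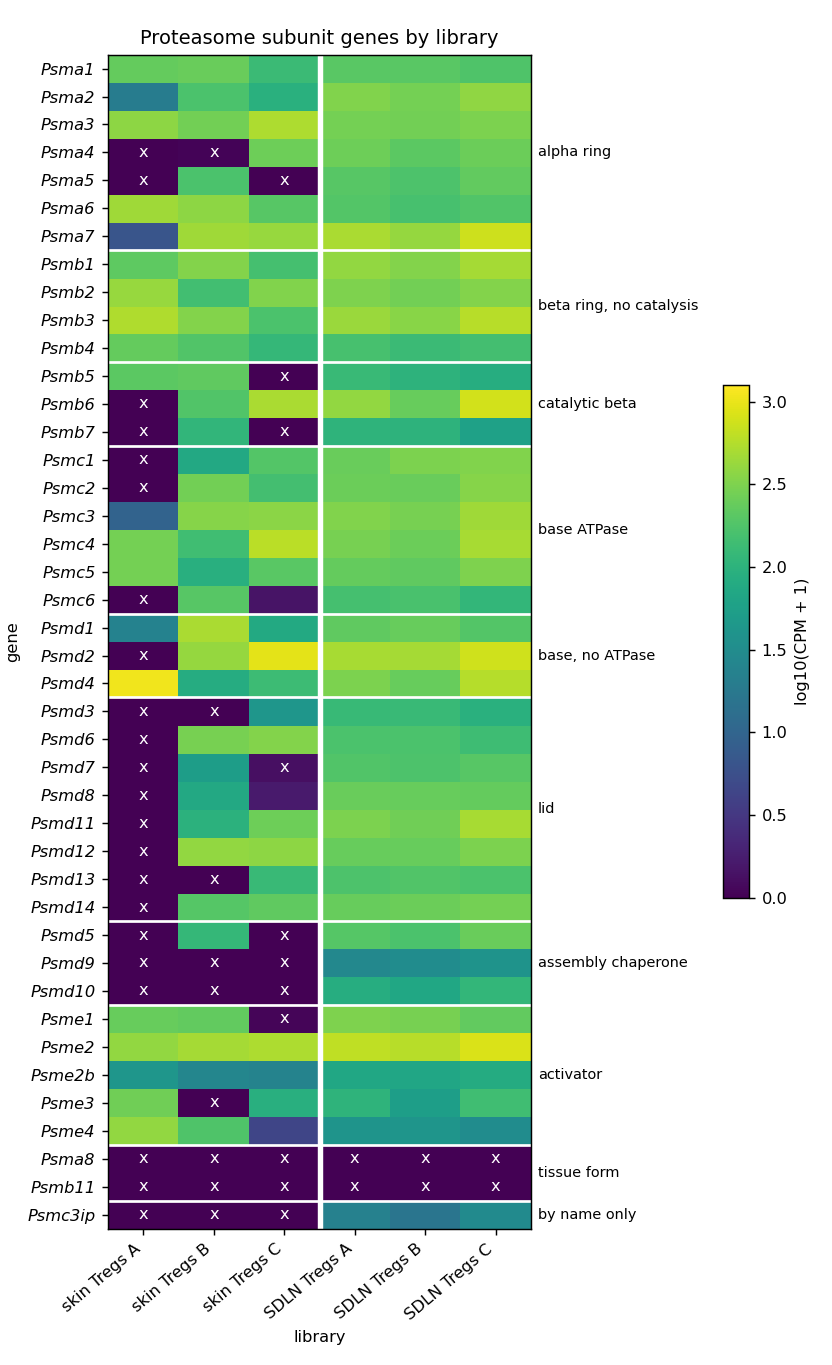
Level of each of the 42 members (rows, grouped by role) in each library (columns), as log10(CPM + 1) on the colour scale; x marks a value of 3 counts or fewer. The skin columns hold 20, 33 and 31 members over the floor and each SDLN column holds 40, and the lid rows are empty in skin Tregs A.

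In the ATPase ring of the 19S base, 3 of 6 genes were over the floor in skin Tregs A and all 6 in skin Tregs B and C. Psmc3 was at 8.80, 346 and 368 CPM in skin and 324, 293 and 449 CPM in SDLN. Psmc4 was at 284, 139 and 607 CPM in skin and 294, 256 and 492 CPM in SDLN. Psmc5 was at 281, 88.1 and 199 CPM in skin and 232, 221 and 314 CPM in SDLN, so that all 3 genes overlapped between the groups. Psmc1, Psmc2 and Psmc6 were at 0 in skin Tregs A, and Psmc6 had 4 counts in skin Tregs C. Adjusted p ranged from 0.737 to 0.983 in the ring.

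The base subunits without ATPase activity are Psmd1 and Psmd2, the large scaffold subunits, and Psmd4, a receptor for ubiquitin chains (chromosome 3, 95032694 to 95042614). In CPM, a different gene was the highest of the group in each skin library. Per kilobase of exon, Psmd2 led in skin Tregs B (99.2 CPM per kb, against 69.0 for Psmd1) and in C (235 CPM per kb). Psmd4 was at 1093, 81.1 and 131 CPM in skin against 308, 239 and 561 CPM in SDLN. Psmd1 was at 22.7, 501.5 and 75.2 CPM in skin against 221, 239 and 183 CPM in SDLN. Psmd2 was at 0, 401 and 949.7 CPM in skin against 499, 485 and 745 CPM in SDLN. For each of these genes 1 skin library lay above all SDLN libraries and the other two below all of them. The summed level of the group nevertheless overlapped, at 1115, 983 and 1156 CPM in skin and 1027, 962 and 1489 CPM in SDLN. Of the counts of all 17 genes of the 19S particle in skin Tregs A, Psmd4 took 64.7% (95% Wilson interval 63.5 to 65.8), against 2.53% and 3.26% in the other skin libraries and 5.84% to 10.3% in SDLN.

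The lid, which holds the deubiquitinase Psmd14, had no gene over the floor in skin Tregs A, where 20 of 40 members were. All 8 lid genes had a count of 0 there, while their SDLN means ran from 113 to 356 CPM. In that library, 39.2% of protein-coding genes at 100 to 300 CPM in SDLN were over the floor. At 300 to 1000 CPM it was 70.3%. In skin Tregs B and C, 6 and 7 of the 8 were over the floor. Psmd14 was at 0, 191 and 221 CPM in skin and 239, 255 and 281 CPM in SDLN, and Psmd12 was at 0, 398 and 374 CPM in skin and 241, 241 and 308 CPM in SDLN. Psmd6 resembled Psmd12, at 0, 292 and 336 CPM in skin and 166, 167 and 138 CPM in SDLN. In skin Tregs B and C, Psmd6 and Psmd12 were thus above every SDLN library and Psmd14 below. Psmd7 and Psmd8 were lower in skin Tregs B, at 52.1 and 74.0 CPM against SDLN means of 182 ± 12.01 and 239 ± 4.04 CPM, and had 3 and 6 counts in skin Tregs C. Psmd3 and Psmd13 were found in skin Tregs C alone. The lid took 0%, 17.3% and 19.7% of the summed core and 19S level in skin, against 18.9% to 22.4% in SDLN. No lid gene passed edgeR's test with all libraries (adjusted p 0.437 to 0.984), and 6 of the 8 had groups that did not overlap, all higher in SDLN. Over all members that was so for 16 of 40, against 53.6% of all genes tested.

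The assembly chaperones help to join the ATPases of the base and leave before the particle is complete. Psmd9, on chromosome 5 (123169413 to 123250131), had 0 counts in all skin libraries and 27.1, 31.2 and 38.4 CPM in SDLN. Psmd10, which encodes gankyrin (chromosome X, 140948429 to 140956728), had 0 counts in all skin libraries and 83.5, 70.0 and 110.4 CPM in SDLN. Against the highest floor of a skin library, 0.800 CPM, Psmd9 was at least 40.3-fold and Psmd10 at least 109.9-fold lower in skin (adjusted p 0.00351 and 0.0114 in edgeR). Such bounds cover counting error only. A gene at 0 in a skin library could be high in another, as Psmd2 was at 0 CPM in skin Tregs A and 949.7 CPM in C. The bounds do not cover this. Psmd5 was at 116 CPM in skin Tregs B and at 0 in the other skin libraries, against 201 ± 40.9 CPM in SDLN, and did not pass the test (adjusted p 0.698). Psmc3ip, no subunit, was alike, with 0 counts in skin and 21.8, 15.1 and 29.5 CPM in SDLN, at least 27.7-fold lower in skin (adjusted p 0.00344). Of the genes tested, 5801 of the 6142 higher in SDLN were likewise at the floor in every skin library, so the calls do not set these 3 genes apart. Psmd9 and Psmc3ip share 25.5% and 21.2% of their exon length with genes of the opposite strand. Psmd10 was no longer called without SDLN Tregs A (adjusted p 0.0553) or without SDLN Tregs B (adjusted p 0.0599).

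Among the activators, Psme1 and Psme2 encode the interferon-induced PA28 ring, Psme3 its nuclear relative and Psme4 the large cap PA200. Psme2 was the steadiest member in skin, at 398, 482 and 525.0 CPM, and lay below the 628, 590.4 and 839 CPM of SDLN without passing the test (log2 fold change -0.53, SE 0.476, adjusted p 0.534). Psme2b was at 41.1, 25.8 and 23.2 CPM in skin and 69.0, 67.2 and 79.1 CPM in SDLN, a log2 fold change of -1.35 (SE 1.09, adjusted p 0.466). DESeq2 called it higher in SDLN, at a log2 fold change of -1.23 (adjusted p 0.000773). Its count was 10.3%, 5.36% and 4.43% of the Psme2 count in skin and 10.98%, 11.4% and 9.43% in SDLN. As said of the printed coding stretch, part of these counts may belong to the other gene. Psme1 was at 239, 226 and 0.111 CPM in skin against 316, 290.1 and 227 CPM in SDLN, and Psme3 was at 270.5, 0 and 88.7 CPM in skin against 104, 54.0 and 139 CPM in SDLN.

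Psme4, on chromosome 11 (30771726 to 30880361), had the largest fitted change toward skin of all members. It was at 395, 174 and 3.43 CPM in skin and 38.9, 40.4 and 31.4 CPM in SDLN, so that skin Tregs A and B lay above and skin Tregs C below every SDLN library. The log2 fold change of 2.06 (SE 1.57) did not pass the test (adjusted p 0.431). Without skin Tregs C the gene was called higher in skin, at a log2 fold change of 2.53 (adjusted p 0.0486), whereas limma voom gave the opposite sign, at -0.21. The tissue forms Psma8 and Psmb11 had 0 counts in all 6 libraries.

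**Figure D2:**
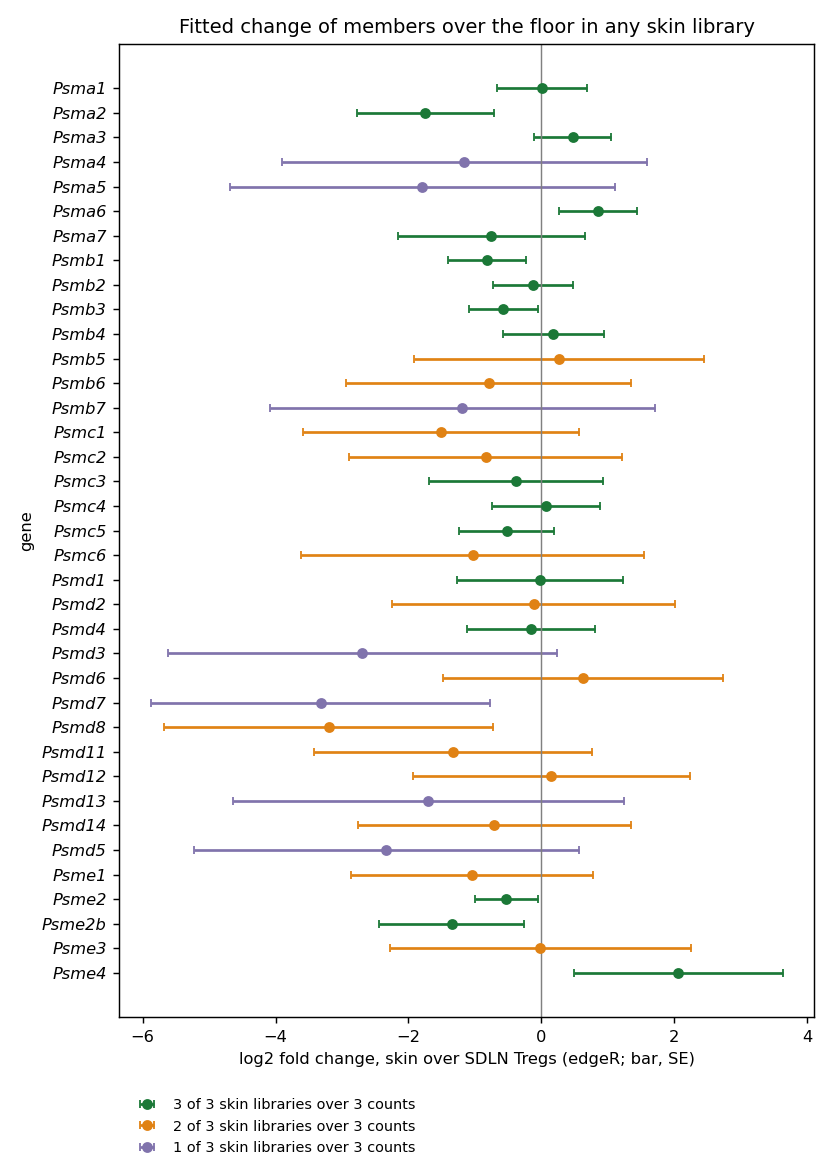
Fitted log2 fold change (skin over SDLN, edgeR) with its SE for the 37 members over the floor in any skin library, coloured by the number of skin libraries in which they were. The intervals of members found in 1 or 2 skin libraries are wider than those of most members found in all 3, and Psme4 at 2.06 is the farthest to the right.

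Summed over the 14 genes of the 20S core, the level was 2689, 3174 and 2874 CPM in skin against 3872, 3235 and 4705 CPM in SDLN. The skin mean of 2912 ± 245 CPM was 74.0% of the SDLN mean of 3938 ± 737 CPM (SD, n = 3 each), and on this scale the highest skin library lay just under the lowest SDLN library. With TMM-scaled library totals the groups overlapped, at 1894, 3348 and 3670 CPM in skin and 3976, 3058 and 5107 CPM in SDLN. They also overlapped per kilobase of exon, rescaled to the same total in each library, where the highest skin library had 4505 and the lowest SDLN library 4489. The 17 genes of the 19S particle summed to 1689, 3204 and 4022 CPM in skin and 4193, 4086 and 5432 CPM in SDLN, and the skin mean of 2972 ± 1184 CPM was 65.0% of 4570 ± 748 CPM. With skin Tregs B as the only skin library these shares were 80.6% and 70.1%. In CPM the highest skin sum of the 19S particle also lay just under the lowest SDLN sum. With TMM-scaled totals the 19S sums overlapped, at 5136 CPM in skin Tregs C and 3862 CPM in SDLN Tregs B. Per kilobase of exon they overlapped too, at 4093 in skin Tregs C and 4062 in SDLN Tregs A. The ratio of the 19S to the 20S sum was 0.628, 1.01 and 1.40 in skin and 1.08, 1.26 and 1.15 in SDLN, so that the skin libraries surrounded the SDLN libraries. The 5 activators summed to 1344, 907 and 641 CPM in skin and 1156, 1042 and 1315 CPM in SDLN, which overlapped.

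**Figure D3:**
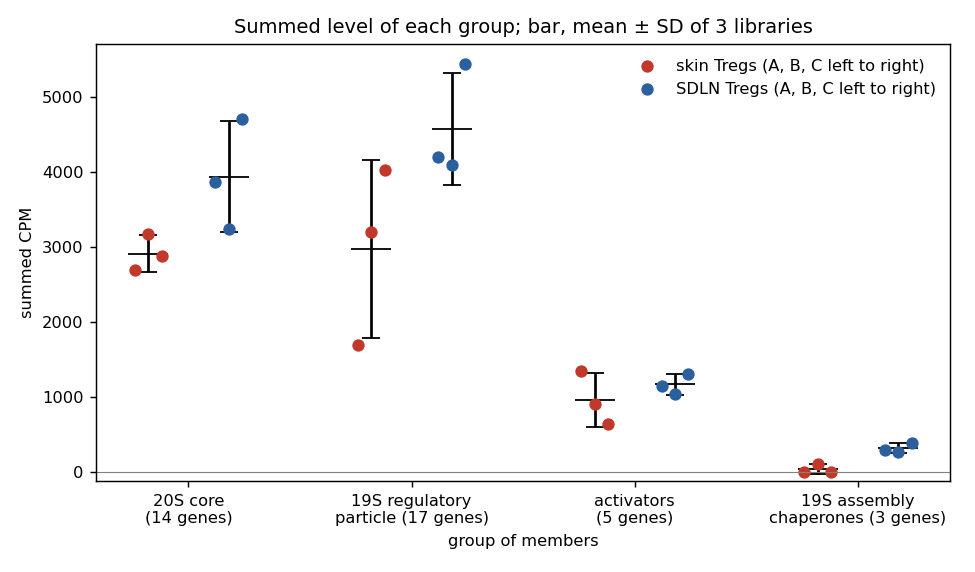
Summed CPM of 4 groups of members in each library (points, A to C from left to right), with mean and SD of 3 libraries as bars. The skin points of the 20S core (2689 to 3174 CPM) lie below the SDLN points (3235 to 4705 CPM). Those of the 19S particle spread from 1689 to 4022 CPM and also lie below the SDLN points (4086 to 5432 CPM). Neither holds with TMM-scaled totals or per kilobase.

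The genes behind these sums differed between the skin libraries. The skin libraries held 20, 33 and 31 members over the floor, against 40 in each SDLN library. After all libraries had been drawn down to the smallest total, each SDLN library still held 40, and the lowest count of any of those members was 65. Of the 120 values that 40 members have in 3 skin libraries, 33 were at 0, 3 at 1 to 3 counts and 7 at 4 to 99 counts, while 77 had at least 100 counts and 75 of these at least 300. Values in skin were thus either absent or well counted, with few in between. Only 17 members were over the floor in all 3 skin libraries, and 13 were in exactly 2, 7 in exactly 1 and 3 in none. At 100 to 300 CPM in SDLN, 28.6% of members and 27.8% of protein-coding genes were so in all 3, and 42.9% and 40.1% in exactly 2. At 300 to 1000 CPM, 75.0% of members and 67.0% of those genes were so in all 3. At 10 to 100 CPM it was 28.6% of 7 members and 5.83%. Among the 17 members, the highest skin library was a median of 3.19 times the lowest (1.32 for Psme2 to 115 for Psme4), whereas in SDLN the median was 1.36 (1.10 to 2.35). Whether other genes show the same spread, or the same split into absent and well counted values, was not tested. Across the 40 members, Pearson's r of log2(CPM + 1) ran from 0.904 to 0.977 for pairs within SDLN, from 0.260 to 0.318 for pairs within skin and from 0.124 to 0.678 for mixed pairs, a description over genes that share libraries and are not independent.

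The share of members over the floor lay near that of all protein-coding genes of like abundance in SDLN. At an SDLN mean of 300 to 1000 CPM, 75.0%, 100% and 100% of 12 members were over the floor in the skin libraries, against 70.3%, 96.5% and 94.0% of 482 protein-coding genes. At 100 to 300 CPM it was 38.1%, 85.7% and 76.2% of 21 members against 39.2%, 77.2% and 70.9% of 1741 genes. At 10 to 100 CPM the shares were 42.9% of 7 members in each library against 16.3%, 39.3% and 34.2% of 6024 genes. The lid genes, with SDLN means between 113 and 356 CPM, lie in the upper and middle bands.

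**Figure D4:**
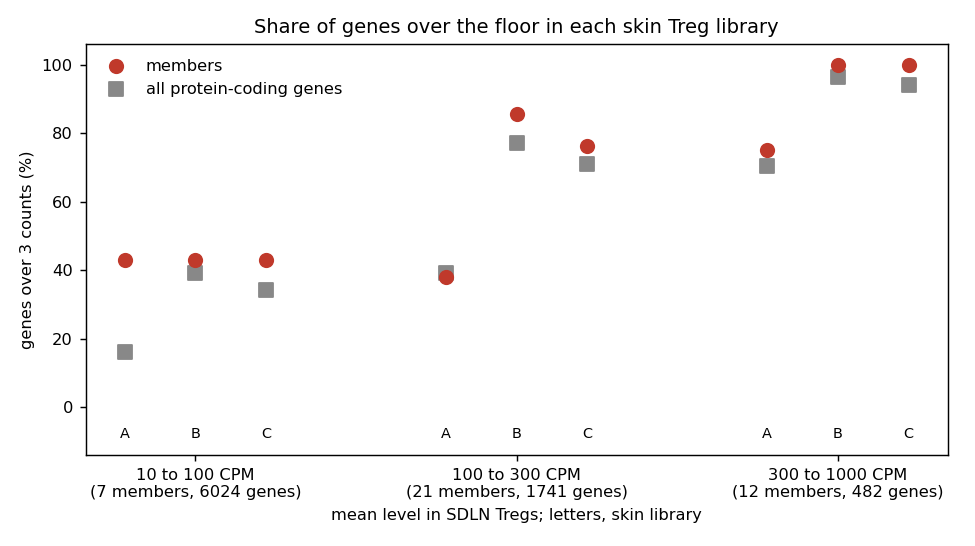
Share of genes over 3 counts in each skin library (A, B, C) by mean level in SDLN Tregs, for members (circles) and all protein-coding genes (squares). The circles lie within 10 percentage points of the squares except at 10 to 100 CPM in skin Tregs A, where 42.9% of 7 members stand beside 16.3% of 6024 genes.

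Per kilobase of exon, which allows genes to be compared with each other, Psme2 was first in each SDLN library, with a mean of 389 ± 75.9 CPM per kb (SD, n = 3). The next means were those of Psmb2, a beta ring subunit, at 255 ± 26.7 and Psmb6 at 249 ± 143 CPM per kb, which did not differ beyond their spread. The SDLN means of the 20S core genes ran from 25.4 CPM per kb (Psmb7) to 255, with a median of 108, and the 19S genes from 22.8 (Psmd3) to 183 (Psmc5), with a median of 80.4. Psme4 and the chaperone Psmd9 had the lowest means of the members detected, at 4.403 ± 0.574 and 4.45 ± 0.787 CPM per kb, which did not differ beyond their spread. Exon lengths cover all annotated isoforms, so that genes with long rare isoforms are set too low. In skin the first place changed with the library, being held by Psmd4 in skin Tregs A (389 CPM per kb), Psma6 in skin Tregs B (300.013 CPM per kb) and Psme2 in skin Tregs C (298 CPM per kb).

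The other genes of the pathway were taken from a list of 31 proteasome partners, of which 29 were in the table and tested. None was higher in skin, also not at an unadjusted p under 0.05, and 7 were higher in SDLN, or 24.1% against the 45.3% of all genes given above. The median log2 fold change was -1.14. Psmg1, Psmg3 and Psmg4, chaperones of the 20S core, had 0 counts in all skin libraries and SDLN means of 62.3 ± 13.2, 18.7 ± 1.60 and 21.6 ± 2.55 CPM (SD, n = 3). Nfe2l1, the regulator named with the promoters, had 0 counts in skin and 55.1, 71.0 and 23.7 CPM in SDLN (adjusted p 0.00667). Psmf1, an inhibitor of the core, and the ubiquitin shuttle genes Ubqln2 and Ubqln4 had at most 3 counts in any skin library (adjusted p 0.00748, 0.0135 and 0.0139). The 7 partners that passed were thus at the floor in every skin library, as were the 3 members.

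The catalytic subunits of the immunoproteasome, which replace Psmb5, Psmb6 and Psmb7 in activated immune cells, had lower values in skin. Psmb8 was at 510, 405 and 179 CPM in skin and 821, 662 and 949 CPM in SDLN, without overlap, and came close to the threshold (log2 fold change -1.29, SE 0.440, adjusted p 0.0576). Psmb9 and Psmb10 were well counted in skin Tregs B alone, at 91.6 and 66.3 CPM, against SDLN means of 161 ± 11.2 and 176 ± 38.5 CPM (adjusted p 0.631 and 0.586). Of the counts of all 6 catalytic genes, those of the immunoproteasome took 71.2% (95% Wilson interval 69.5 to 72.9) in skin Tregs A, 52.7% (51.8 to 53.5) in B and 26.1% (24.997 to 27.2) in C, against 59.1% to 68.6% in SDLN.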

How the data were processed

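Poly(A) or rRNA-depleted RNA of the sorted Tregs was sequenced as 150-base paired reads. According to the submitters' notes and the study's methods, reads were trimmed with Trimmomatic 0.36, mapped to GRCm38 with STAR 2.5.2b and counted over exons with featureCounts (Subread 1.5.2). What the authors deposited are raw counts for each Ensembl gene, not normalized. The annotation release and strand setting are not given in the sources used here, and no molecular identifiers are described, so intervals and floors cover counting error only. Groups came from the sample titles, since the tissue field reads skin for all samples. Columns are lettered and titles numbered, so libraries are named by letter. Since each sample pools animals, p-values measure the spread between pools.

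Symbols came from GENCODE M21, which named 49056 genes. Counts were tested with edgeR 4.0.16 in R 4.3.3 (filterByExpr, TMM, robust quasi-likelihood F test, tissue as the only term, adjusted p threshold 0.05). The study's methods state no test for this comparison. SE was derived from the F statistic. Alternatives were other scalings, DESeq2 1.42.0, limma 3.58.1 voom with quality weights, filters, libraries drawn down to the smallest total, and each library left out. Skin Tregs B as the only skin library and a block on the column letter were added after seeing the data. The fit was tested on simulated data with 200 changed genes. Recovery was required only at a dispersion far below the common dispersion of these data, 2.04. The simulation is thus no measure of how many real changes the test would miss here. Members, gene lists and tests were chosen with earlier results of these data known, and the promoter patterns and stretches after the values were seen. Named with values are members that passed the test, members over 3 counts in all or in no skin library, the catalytic subunits, and Psma8, Psmb11, Psme2b and Psmc3ip. Psma4, Psma5, Psmd2, Psmd3, Psmd5 to Psmd8, Psmd12 to Psmd14, Psme1, Psme3, Psmc1, Psmc2 and Psmc6 were named in addition after their values were seen. From the partners, those that passed and the immunoproteasome genes are named. 12 members share exon bases with another annotated gene, 5 of them over at least 10% of their exon length.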

Additional observations from a re-analysis of the deposited data

How the results depend on the processing

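A replicate block on the letter of the columns, added after seeing the data, left 3 members higher in SDLN and 0 higher in skin, with 5633 genes higher in SDLN against 6142 as reported and 61 higher in skin against 141. No source used here says that a letter marks the same animals in both tissues. The deviations of same-letter libraries from their group means correlated at 0.0199, -0.0210 and 0.0753 over the genes tested, so that the letters were not taken as pairs. Of the members, 3 were higher in SDLN. That count was 4 with DESeq2 (47.8% of all genes tested, against 45.3% as reported), 9 with limma voom (53.0%), 0 with at least 10 counts in every library (which leaves 17 members and takes out the 3, and where 0.645% of 1396 genes were higher in SDLN and 5.80% higher in skin, against 45.3% and 1.04% as reported), and 2 to 9 with 1 library left out. It was 9 without skin Tregs B (48.9%), 6 without skin Tregs C (46.5%) and 2 without SDLN Tregs A (40.6%) or SDLN Tregs B (40.1%). None was higher in skin, against 1 with DESeq2 (Psma6; 2.98% of all genes), and 0 to 1 with 1 library left out, the 1 being Psme4 without skin Tregs C (1.21% of all genes). With skin Tregs B alone, 5 were higher in skin and 15 in SDLN. The number of members over the floor in skin had a mean of 28 and ran from 25.5 to 32 with 1 library left out. The 20S core share of 74.0% was 80.6% with skin Tregs B alone and ran from 67.9% to 81.9% with 1 library left out, the highest without SDLN Tregs C. The 19S share of 65.0% ran from 53.5% to 79.1%.

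The median log2 fold change, -2.21 over all genes and -0.77 over the members, was -2.33 and -0.91 with TMMwsp, -4.68 and -2.75 with voom, -3.27 and -0.83 without a filter, -1.33 and -0.91 drawn down, -8.05 and -1.54 with the block, and 0.08 and -0.35 with at least 10 counts in every library. Without 1 of the skin libraries it was -6.10 to -7.41 over all genes and -0.74 to -1.07 over the members, and with skin Tregs B alone it was -7.14 and -0.48. Of the 23 genes followed under the naming rule, 10 changed sign with the processing, each beside an adjusted p over the threshold in the reported test. The cause was not tested. For Psma1 (0.01 as reported), the log2 fold change was -0.102 with TMMwsp, -0.100 with voom, -0.0655 without a filter, -0.177 with at least 10 counts in every library, -0.0483 drawn down, -0.0233 with the block, and -0.26 to 0.034 with 1 library left out. For Psmc4 (0.07), it was -0.00734 with library totals, -0.0704 with TMMwsp, -0.00476 without a filter, -0.236 with at least 10 counts, -0.0941 drawn down, -0.253 with the block, -1.29 with skin Tregs B alone, and -1.11 to 0.44 with 1 library left out. For Psmd4 (-0.16), it was 0.172 with DESeq2 size factors and in DESeq2 itself, 0.249 with library totals, and -1.77 to 0.30 with 1 left out. For Psmb2 (-0.12), the DESeq2 values were 0.0013 and 0.000917, and the range with 1 left out was -0.57 to 0.16. Voom gave -4.84 for Psmb5 (0.27) and -0.206 for Psme4 (2.06), the block gave -0.885 for Psmb5, and leaving out 1 library gave -0.54 to 0.75 for it. Skin Tregs B alone gave -0.0215 for Psma3 (0.47), 0.387 for Psmb7 (-1.19) and 1.28 for Psmd1 (-0.02). With 1 library left out, Psma3 ran from -0.17 to 0.66, Psmd1 from -1.96 to 0.38 and Psmc3 (-0.38) from -1.07 to 0.017. Psmb7 was called at -7.91 with voom and at -15.07 without skin Tregs B. Of the values of these 23 genes under an alternative, 308 kept direction and call, 40 changed sign, 12 became called in the same direction and 2, both of Psmd10, were no longer called. Of the other members tested, Psmc2, Psmc6, Psmd2, Psmd6, Psmd12 and Psme3 also changed sign, among them Psme3 (-0.01 as reported), at 0.27 with DESeq2 size factors and 0.29 with library totals, and Psmd12 (0.15), at -0.03 with library totals.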
